A study of Homo sapiens with 12 samples.

Results

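Metallothioneins are small cysteine-rich proteins that hold zinc and copper ions in clusters of metal and thiolate. Their genes are switched on when free zinc rises, through MTF1, a zinc finger transcription factor that senses zinc and binds short metal response elements in their promoters. The same factor activates SLC30A1, which exports zinc from the cell, and represses SLC39A10, which imports it, so that these transcripts respond together when the free zinc of a cell changes. Some metallothionein genes, MT2A among them, are also induced by glucocorticoids.

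The genes described here were the 6 metallothioneins MT2A, MT1E, MT1F, MT1G, MT1M and MT1X, and MTF1. They were taken by name from a table of 60671 genes, and all 7 were found in it. Of the 7 genes, 4 passed the filter of more than 1 CPM (counts per 1000000 gene counts of the library) in at least 3 libraries and were tested among 13236 genes, namely MT2A, MT1E, MT1X and MTF1. MT1F, MT1G and MT1M did not pass and are described by their counts.

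The cells were BJ-5ta, human foreskin fibroblasts immortalised with telomerase, either wild type (WT) or carrying a CRISPR/Cas9 knockout of LEO1, a subunit of the transcription elongation complex PAF1C. The knockout was 1 clone, clone 13, so that the effect of the knockout and the character of that clone cannot be told apart. Both genotypes were grown in RPMI with 10% fetal bovine serum (groups WT_10 and Leo1_10) or kept for 10 days in 0.1% serum to make them quiescent (groups WT_01 and Leo1_01). Poly(A) RNA was sequenced with added ERCC transcripts in 3 libraries of each group, numbered 1 to 3, 4 to 6, 7 to 9 and 10 to 12 in the order WT_10, Leo1_10, WT_01 and Leo1_01. Neither the labels nor the methods say that the libraries of a group came from separate cultures, and p-values therefore measure the spread between these libraries alone.

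Gene counts per library ran from 26240632 to 45315560, and ERCC transcripts took 0.625% to 3.24% of all counts. LEO1 had 682 to 1001 counts in the WT libraries and 23 to 55 in the knockout libraries, with no overlap. Fibroblast markers summed to 68931 to 99872 CPM over the 12 libraries. Epithelial markers summed to 0.239 to 0.459 CPM in WT and 0.850 to 1.53 CPM in knockout libraries. Leukocyte markers summed to 1.15 to 2.10 CPM in WT and 3.17 to 9.13 CPM in knockout libraries. Endothelial markers summed to 2.01 to 5.52 CPM in WT and 0.400 to 0.644 CPM in knockout libraries. The part of these markers in the results was not tested. In every group the highest-numbered library (3, 6, 9 and 12) stood apart from the other 2. The chi-square statistic per gene was 53.9 to 116 in the 8 pairs of replicates that held such a library and 2.73 to 10.2 in the other 4 pairs.

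The 6 metallothionein genes lie together on chromosome 16. In GENCODE v29 on GRCh38, MT2A spans chr16:56608199-56609497, MT1E chr16:56625475-56627112, MT1M chr16:56632233-56633986, MT1F chr16:56657694-56660698 and MT1X chr16:56682424-56684196, all on the plus strand, and MT1G chr16:56666731-56668065 on the minus strand. From the start of MT2A to the end of MT1X were 76.0 kb, with 14 metallothionein genes, of which 9 were annotated as protein coding and 5 as pseudogenes. MTF1 is not part of the cluster and spans chr1:37809567-37859620 on the minus strand.

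The coding sequences of the 3 metallothioneins that were tested are shown to make plain how much sequence these paralogs share. Each runs from the start codon to the stop codon as annotated, and in MT1E and MT1X capitals mark the bases that differ from MT2A at the same position.
MT2A: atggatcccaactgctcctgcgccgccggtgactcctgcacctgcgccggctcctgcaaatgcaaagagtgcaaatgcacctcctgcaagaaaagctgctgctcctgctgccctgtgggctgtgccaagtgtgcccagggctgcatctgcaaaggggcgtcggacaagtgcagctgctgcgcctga
MT1E: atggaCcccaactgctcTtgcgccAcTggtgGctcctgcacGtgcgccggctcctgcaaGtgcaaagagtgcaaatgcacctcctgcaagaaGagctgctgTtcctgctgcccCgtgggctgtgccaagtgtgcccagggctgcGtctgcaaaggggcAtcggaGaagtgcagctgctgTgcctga
MT1X: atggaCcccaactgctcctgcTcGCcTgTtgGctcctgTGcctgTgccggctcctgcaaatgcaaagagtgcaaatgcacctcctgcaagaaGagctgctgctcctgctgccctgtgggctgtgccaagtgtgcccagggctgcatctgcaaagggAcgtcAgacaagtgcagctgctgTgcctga
All 6 coding sequences had 186 bases. Identity over the 15 pairs was 88.7% to 95.2%, and MT1E and MT1X each differed from MT2A at 14 positions (92.5% identity), MT1G at 9, MT1F at 16 and MT1M at 19. The longest unbroken run in common with MT2A was 32 bases in MT1E, 63 bases in MT1X and 65 bases in MT1G.

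A read that matches 2 paralogs exactly cannot be assigned by its sequence, and the reads here had 58 bases from each end of a fragment. Reads with mismatches were not considered. Stretches were pooled over all annotated transcripts of a gene, so the share among reads of a short spliced transcript may be larger. Of the 58-base stretches in the annotated transcripts of MT2A, 25 of 1406 (1.78%) also occurred in the sense transcripts of another gene. The share was 4.52% for MT1E (50 of 1106), 0.657% for MT1F (13 of 1979), 4.86% for MT1M (43 of 884) and 0.414% for MTF1 (33 of 7965). It was larger for MT1G, with 111 of 860 (12.9%), and for MT1X, with 321 of 1883 (17.0%). Most of the MT1X stretches, 265, were shared with AC026461.1, a gene whose exons overlap 321 bases of the MT1X exons on the same strand. That gene had 0 counts in all 12 libraries. How reads over both genes, or with several equal alignments, were counted is not given in the sources used here, so the level of MT1X may be understated and the counts of MT1G are uncertain.

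Within the cluster, transcripts came almost entirely from 3 genes. Summed over the 12 libraries, MT2A had 68249 counts, MT1E 13014 and MT1X 1762, against 155 for MT1M, 55 for MT1F and 1 for MT1G. Among the metallothionein genes outside the list, none of the 14 passed the filter, and the highest sums were 75 for MT1L, 43 for MT1A, 22 for MT1XP1 and 20 for MT1JP. MTF1 had 11742 counts.

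**Figure D1:**
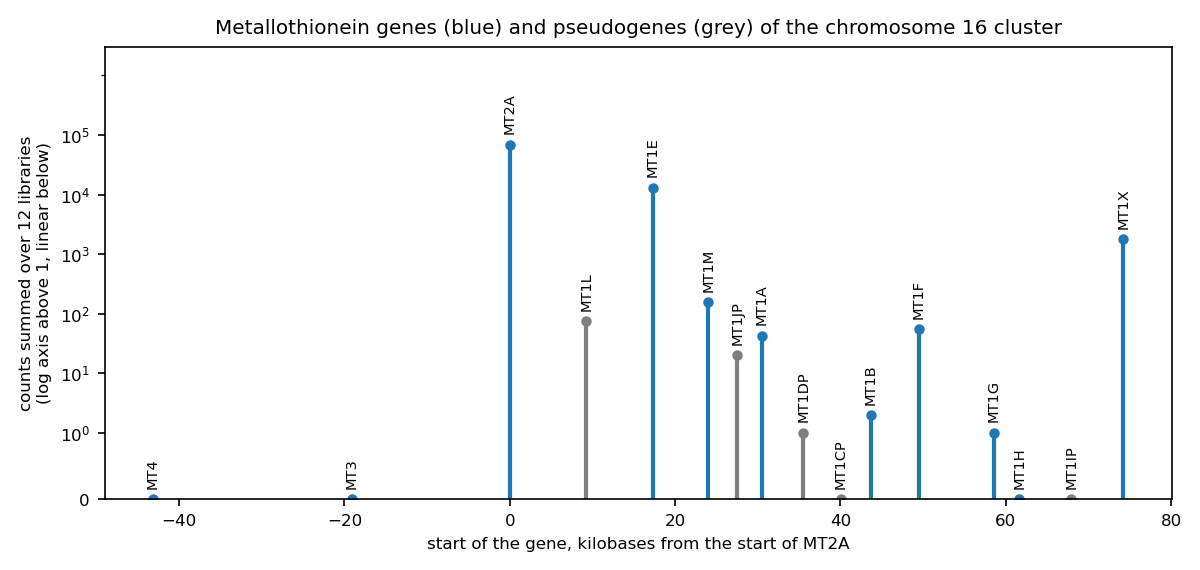
Counts summed over the 12 libraries (vertical axis, logarithmic above 1 and linear below) for each metallothionein gene (blue) and pseudogene (grey) of the cluster, placed by its start in kilobases from the start of MT2A. MT2A at 68249, MT1E at 13014 and MT1X at 1762 counts stand above all others, and no other gene of the cluster exceeds the 155 counts of MT1M.

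MT2A, the most widely expressed member of the family, was the most abundant in every group. In CPM of the gene counts, MT2A had 180.1, 202.0 and 88.3 in WT_10 (libraries 1, 2 and 3) and 183.7, 192.0 and 11.7 in Leo1_10 (libraries 4, 5 and 6). In 0.1% serum it had 125.9, 155.4 and 120.9 in WT_01 and 262.5, 234.0 and 137.3 in Leo1_01. Libraries 3 and 6 were low for their groups and library 12 was the lowest of Leo1_01, while in WT_01 the 3 libraries were close. The group means were 157 ± 60.3 (SD, n = 3), 129 ± 102, 134 ± 18.7 and 211 ± 65.6 CPM in the same order, and every group overlapped every other, although the Leo1_01 libraries 10 and 11 lay above all other libraries.

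MT1E, a metal-inducible gene and the next protein-coding gene along the cluster, had 34.4, 34.8 and 11.9 CPM in WT_10 and 40.6, 38.2 and 2.14 CPM in Leo1_10. It had 20.4, 24.4 and 30.2 CPM in WT_01 and 47.9, 45.4 and 29.5 CPM in Leo1_01. Libraries 3 and 6 were again the lowest of their groups, and the groups overlapped in each of the 4 comparisons. The means were 27.1 ± 13.1, 27.0 ± 21.5, 25.0 ± 4.92 and 40.9 ± 9.94 CPM.

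MT1X, at the far end of the cluster, was expressed at a lower level. Its values were 3.56, 4.39 and 1.66 CPM in WT_10, 6.91, 7.13 and 0.855 in Leo1_10, 2.94, 2.86 and 3.19 in WT_01, and 5.58, 5.35 and 3.31 in Leo1_01. The Leo1_10 libraries 4 and 5 were the highest of all 12 and library 6 the lowest, with 38 counts against 268 and 323. Every Leo1_01 library was above every WT_01 library, by a narrow margin in library 12.

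MTF1, the regulator, varied far less. It had 25.0, 24.9 and 23.1 CPM in WT_10, 31.1, 29.4 and 27.5 in Leo1_10, 29.6, 26.8 and 21.3 in WT_01, and 25.5, 26.9 and 28.8 in Leo1_01. The 3 Leo1_10 libraries were above the 3 WT_10 libraries, while the 2 sera overlapped within each genotype and the genotypes overlapped in 0.1% serum. In library 6, where the metallothioneins were lowest, MTF1 was close to its level in libraries 4 and 5.

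**Figure D2:**
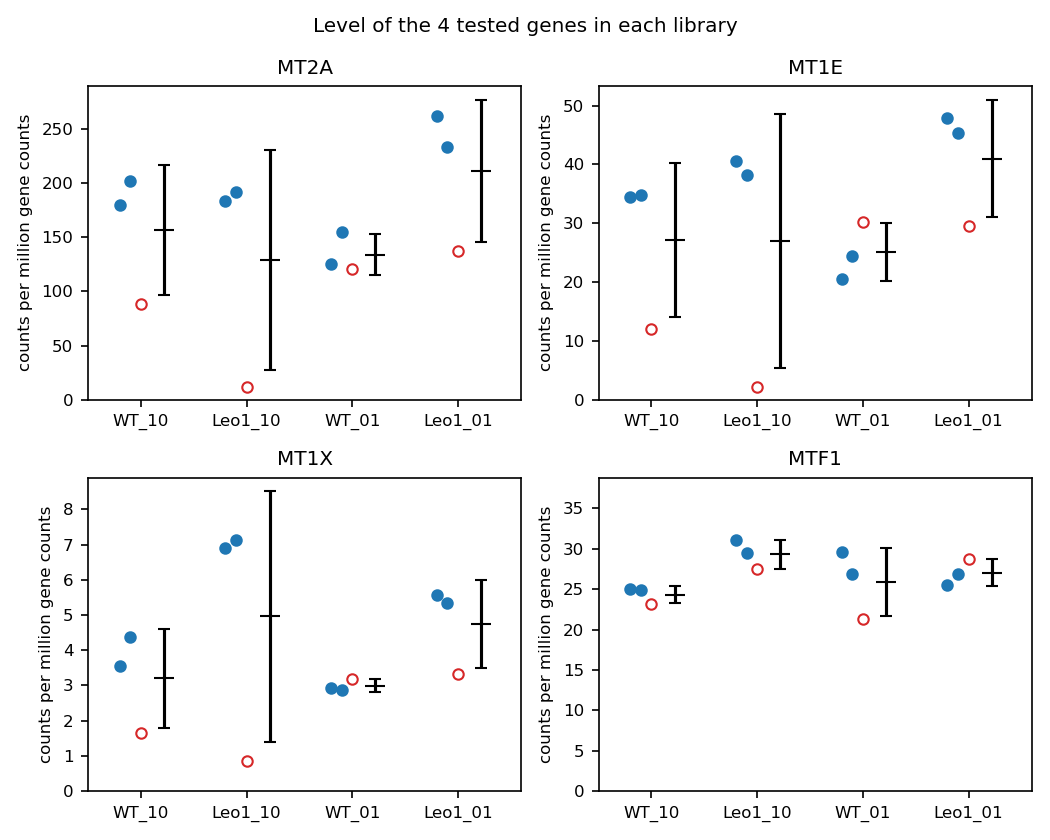
Level of MT2A, MT1E, MT1X and MTF1 in CPM (vertical axes) in each of the 12 libraries by group. Filled blue points are the 2 lower-numbered libraries of a group, open red circles the highest-numbered library, and black bars the mean ± SD of 3. MT2A is at 11.7 and MT1E at 2.14 CPM in the open circle of Leo1_10, while MTF1 lies between 21.3 and 31.1 CPM throughout.

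Compared per kilobase of exon, MT2A was also the highest of the family. With all annotated exons as the length, MT2A had 121 ± 46.4 CPM per kilobase in WT_10, 99.4 ± 78.3 in Leo1_10, 103 ± 14.4 in WT_01 and 163 ± 50.5 in Leo1_01 (SD, n = 3). MT1E had 25.7, 25.6, 23.8 and 38.9 on this scale in the same order, MTF1 3.03, 3.65, 3.23 and 3.37, MT1X 1.81, 2.80, 1.69 and 2.68, and MT1M 0.280, 0.150, 0.388 and 0.735. With this length the order MT2A, MT1E, MTF1, MT1X, MT1M held for the means of all 4 groups. MTF1 and MT1X did not differ beyond the SD of MT1X in Leo1_10 and Leo1_01, nor MT2A and MT1E beyond the SD of MT2A in Leo1_10. The annotated exons of MT2A (1299 bases) and MT1X (1773 bases) cover the whole gene, including bases that some transcripts splice out. The longest MT1X transcript has 1727 bases. The place of MTF1 above MT1X may therefore depend on the length, and a shorter length was not tested. With the longest transcript as the length, MT2A means were 174 in WT_10, 143 ± 113 in Leo1_10, 148 in WT_01 and 234 in Leo1_01.

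MT1E moved in proportion to MT2A, and MT1X less strictly. The counts of MT1E were 13.5% of those of MT2A in library 3 and 25.0% in library 9, and lay between these values elsewhere. MT1X counts were 1.84% to 2.64% of those of MT2A in the WT libraries and in Leo1_01, 3.71% and 3.76% in the Leo1_10 libraries 5 and 4, and 7.29% in library 6. MTF1 had 9.70% to 26.2% of the counts of MT2A in 11 libraries and 234% in library 6.

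The most marked variation of the family was between libraries of the same group. In library 6 (Leo1_10), MT1E was 17.6-fold lower and MT2A 15.9-fold lower than the mean of libraries 4 and 5 in CPM. These were the first and the second largest decreases among the 13236 genes, and MT1X, 7.45-fold lower, was 6th. Of all genes, 0.181% (24 genes) were at least 4-fold lower in library 6, and these included all 3 tested metallothioneins. MTF1 was 1.10-fold lower. Each of these is 1 library against 2 and carries no test.

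The same comparison was made for the highest-numbered library of the other groups. In library 3 (WT_10), MT1E was 2.89-fold, MT1X 2.32-fold and MT2A 2.16-fold lower than the mean of libraries 1 and 2. None of the 3 was among the 0.234% of genes (31 genes) at least 4-fold lower there. In library 12 (Leo1_01), MT2A was 1.81-fold, MT1X 1.63-fold and MT1E 1.58-fold lower than in libraries 10 and 11. Library 9 (WT_01) did not share this pattern, with MT2A 1.16-fold lower, MT1X 1.10-fold higher and MT1E 1.35-fold higher.

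The 2 zinc transporters under MTF1 stood on opposite sides of their groups in libraries 3 and 6. SLC30A1, the zinc exporter of the plasma membrane, had 41.5, 41.7 and 9.89 CPM in WT_10 and 33.6, 33.1 and 4.41 CPM in Leo1_10. It was thus 4.17-fold lower in library 3 and 7.42-fold lower in library 6, where it ranked 7th from the lowest, directly after MT1X. SLC39A10, a zinc importer, had 35.8, 37.3 and 95.4 CPM in WT_10 and 15.9, 16.5 and 44.9 CPM in Leo1_10, which made it 2.61-fold and 2.76-fold higher in the same libraries. In 0.1% serum SLC30A1 had 40.6, 36.2 and 43.1 CPM in WT_01 and 35.2, 33.4 and 50.1 CPM in Leo1_01, so that it was 1.12-fold and 1.46-fold higher in libraries 9 and 12. SLC39A10 had 24.6, 24.1 and 27.7 CPM in WT_01 and 13.1, 13.7 and 24.5 CPM in Leo1_01, 1.14-fold higher in library 9 and 1.82-fold higher in library 12, on the same side as SLC30A1.

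**Figure D3:**
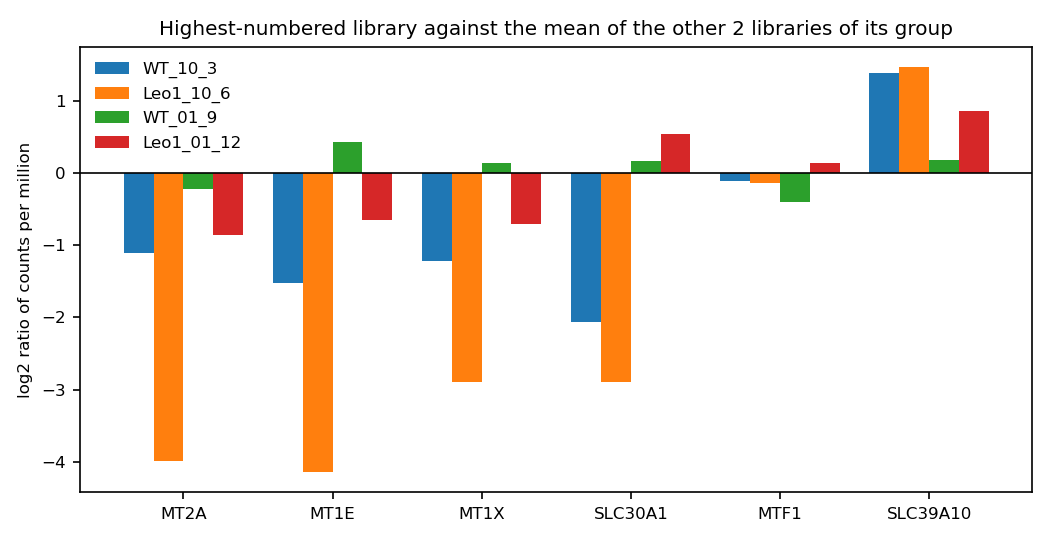
Log2 ratio of CPM in the highest-numbered library of each group to the mean of the other 2 libraries (vertical axis) for 6 genes, coloured by library. MT2A, MT1E, MT1X and SLC30A1 are lower in libraries 3 and 6 and SLC39A10 is higher there, while the bars of MTF1 are short.

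**Figure D4:**
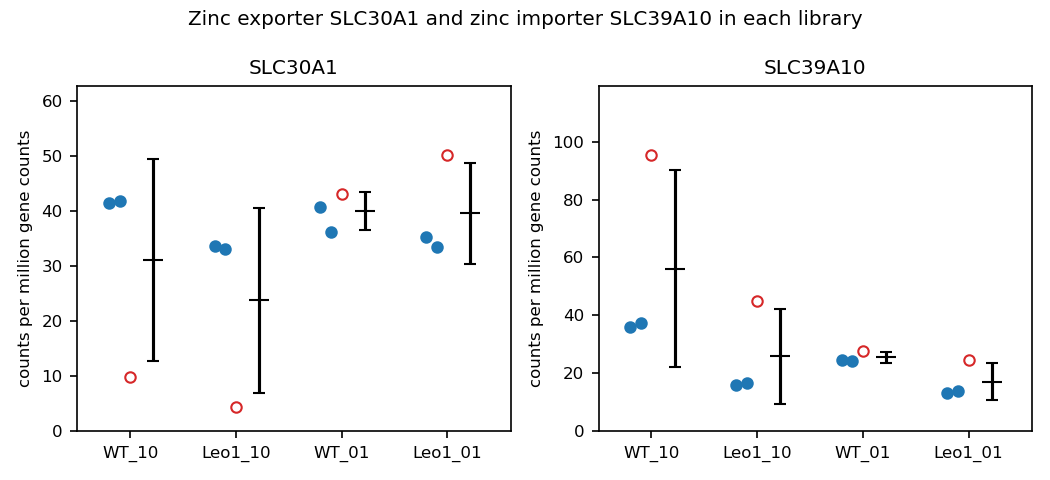
Level of SLC30A1 and SLC39A10 in CPM (vertical axes) in each library by group, with filled blue points for the lower-numbered libraries, open red circles for the highest-numbered library and black bars for the mean ± SD of 3. In 10% serum the open circles of SLC30A1 sit at 9.89 and 4.41 CPM below the filled points, and those of SLC39A10 at 95.4 and 44.9 CPM above them.

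Other genes moved in the same libraries. The 24 genes of library 6 also held COMP, a cartilage matrix protein (12.7-fold lower), and HAS2, which makes hyaluronan (8.60-fold). Interferon-stimulated genes were among them as well, namely IFI44L (8.09-fold), IFI27 (7.30-fold), OAS2 (5.22-fold), OAS1 (4.81-fold), IFI6 (4.19-fold) and OAS3 (4.17-fold). The 31 genes of library 3 were led by COMP (18.0-fold), the matrix protein POSTN (16.4-fold) and TGFBI (9.53-fold), and held mitotic genes such as CCNA2 and KIF20A. COMP, KLHDC7B, LRRC15 and SLC30A1 were in both, 4 of the 24 and of the 31 genes. These genes were named after their values were seen. Whether the cultures, the RNA or the preparation of these libraries differed was not tested.

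Promoter sequence is shown for genes that moved together in libraries 3 and 6, with capitals marking matches to the core of the metal response element, TGCACNC or TGCGCNC, on either strand. Sequences are from RefSeq on GRCh38.p14, read 5′ to 3′ on the strand of the gene, within the 250 bases before the RefSeq start. For MT2A, where GENCODE v29 places the start of the transcript further upstream, 2 stretches of 30 bases are given, chr16:56608426-56608455 and chr16:56608522-56608551 (plus strand). For MT1X the stretch ends where the GENCODE transcript begins, chr16:56682220-56682423 (plus strand), and for SLC30A1 the whole window is given, chr1:211579162-211579411 (minus strand). The SLC30A1 window does not reach the GENCODE v29 transcript, which begins further downstream, at chr1:211578742.
MT2A, first stretch: ccgggTGCGCCCggcccagTGCGCGCggcc
MT2A, second stretch: ggggctttTGCACTCgtcccggctctttct
MT1X: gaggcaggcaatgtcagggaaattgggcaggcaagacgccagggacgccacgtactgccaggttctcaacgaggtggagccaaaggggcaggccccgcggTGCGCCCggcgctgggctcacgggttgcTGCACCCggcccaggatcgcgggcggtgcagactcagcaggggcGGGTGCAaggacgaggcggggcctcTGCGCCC
SLC30A1: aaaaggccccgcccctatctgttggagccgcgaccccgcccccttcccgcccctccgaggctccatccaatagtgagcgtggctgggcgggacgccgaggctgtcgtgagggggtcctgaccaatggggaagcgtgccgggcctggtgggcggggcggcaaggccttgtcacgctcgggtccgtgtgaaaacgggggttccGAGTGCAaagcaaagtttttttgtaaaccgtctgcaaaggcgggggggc
The whole window of MT2A held 7 matches, beginning 246, 168, 153, 139, 88, 54 and 8 bases before the start. The window of MT1X held 4, beginning 150, 122, 78 and 53 bases before the start, and that of SLC30A1 held 1, at 49 bases. Of 35116 RefSeq windows of the same length, 24.8% held at least 1 match, 0.370% at least 4 and 0.0513% (18 windows) at least 6. The MTF1 window and both SLC39A10 windows held 0 matches to these letters. Among metallothionein genes with almost no counts, the MT1H window held 8 matches and those of MT1B and MT4 3 each, so that the number of matches did not follow the level of transcript. MT1E, MT1F, MT1G and MT1M were not matched in the promoter table.

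Outside the family, the genes whose pattern over the 12 libraries was most like that of MT2A were GBP3, with a Pearson correlation of 0.90 (log2 CPM scaled by TMM on the genes, 8895 genes compared), ERLIN1 (0.89), CSTF3 (0.89), FN3KRP (0.88) and SLC30A1 (0.86). Within the family the correlation with MT2A was 0.98 for MT1E and 0.88 for MT1X. For MTF1 it was -0.05 and for SLC39A10 -0.53. The rank correlation with MT2A was 0.92 for MT1E, 0.76 for GBP3, 0.59 for ERLIN1, 0.69 for CSTF3 and 0.83 for FN3KRP, and 0.18 for SLC30A1, which was low only in libraries 3 and 6. MTF1 was most like DHX8 (0.94), XRN2 (0.93), DDX46 (0.93), RIF1 (0.91) and OTULIN (0.91). These are descriptions over 12 libraries that share their groups, depth and preparation.

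The first comparison asked how the genes differed between proliferating and quiescent WT cells. Counts were scaled by the ERCC transcripts, so that a gene is compared per unit of added RNA. On this scale MT2A and MT1E fell in 0.1% serum, MT1X and MTF1 were lower without passing the threshold, and the median of all genes was itself lower by a similar amount. With this scaling fewer cells and less RNA per cell cannot be told apart.

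In ERCC-scaled counts, given per 1000000 ERCC counts, MT2A spanned 6137 to 22710 in the 3 WT_10 libraries and 4506 to 9377 in the 3 WT_01 libraries. The groups overlapped, through the low library 3. By edgeR's quasi-likelihood test with Benjamini-Hochberg adjustment over 13236 genes, the log2 fold change of MT2A was -1.34 (SE 0.48, 95% interval -2.28 to -0.41, adjusted p = 0.0278, n = 3 and 3). MT1E spanned 829 to 4339 and 957 to 1474, also overlapping, and changed by a log2 ratio of -1.31 (SE 0.49, adjusted p = 0.0359). MT1X, at 115 to 461 and 119 to 172, had -1.25 (SE 0.54, adjusted p = 0.0606), and MTF1, at 1607 to 3153 and 793 to 1618, had -0.96 (SE 0.49, adjusted p = 0.100).

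Thus 2 of the 4 tested genes were called lower and 0 higher. Of all genes, 27.0% were called lower and 0.831% higher in this comparison, and the median log2 fold change was -0.97. The 3 metallothioneins were therefore lower than the median gene by less than their standard errors. The call of MT2A was lost when library 1, 2, 7 or 9 was left out (adjusted p = 0.148 to 0.207), and that of MT1E when library 1, 2, 7, 8 or 9 was left out (0.0504 to 0.267). Without library 3, the log2 fold changes were -1.74 for MT2A (adjusted p = 0.00663), -1.75 for MT1E (0.00769) and -1.67 for MT1X (0.0166). With the highest-numbered library of each group as a term in the fit, chosen after the data were seen, both calls were lost, with -1.16 for MT2A (adjusted p = 0.0720) and an adjusted p of 0.121 for MT1E.

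Scaled by TMM on the genes themselves, which compares each gene with the bulk of the transcripts, no difference of these 4 genes was called. The log2 fold changes were -0.31 for MT2A (adjusted p = 0.760 by the same test), -0.19 for MT1E, -0.18 for MT1X and 0.00 for MTF1, and 0 of the 4 had an unadjusted p under 0.05. The same edgeR test with DESeq2 size factors from the genes in place of TMM also called 0 of the 4, here and in the other comparisons. On this scale 16.1% of all genes were lower and 15.5% higher.

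The same shift of serum was compared in the knockout cells. On the ERCC scale MT1X and MTF1 fell, and MT2A and MT1E did not pass the threshold. MT1X spanned 90.2 to 1093 ERCC-scaled counts in Leo1_10 and 160 to 301 in Leo1_01, which overlapped, with a log2 ratio of -1.42 (SE 0.54, adjusted p = 0.0351). MTF1 spanned 2896 to 4914 and 807 to 2608, without overlap, with -1.24 (SE 0.49, adjusted p = 0.0403). MT2A had -0.66 (SE 0.47, 95% interval -1.58 to 0.26, adjusted p = 0.201) and MT1E -0.76 (adjusted p = 0.158).

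Of the 4 tested genes, 2 were called lower and 0 higher, where 36.4% of all genes were lower and 0.793% higher and the median log2 fold change was -1.05. The values of MT2A and MT1E were thus above the median and those of MT1X and MTF1 below it. The calls of MT1X and MTF1 were lost when library 4, 5, 10 or 11 was left out (adjusted p = 0.108 to 0.265 for MT1X and 0.0845 to 0.205 for MTF1). Without library 6, MT2A had -1.21 (adjusted p = 0.0612), MT1E -1.31 (0.0537), MT1X -1.94 (0.0179) and MTF1 -1.40 (0.0476), and without library 12 MT1E had -0.93 (adjusted p = 0.0368). With the highest-numbered library as a term both calls were lost, and MT1X had -0.98 (adjusted p = 0.150), MTF1 -1.19 (0.0752), MT2A -0.08 and MT1E -0.23.

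The direction of MT2A and MT1E depended on the scale. With TMM on the genes, the log2 ratio was 0.67 for MT2A (adjusted p = 0.497) and 0.56 for MT1E, while MT1X had -0.11 and MTF1 -0.18 (adjusted p = 0.248), and 0 of the 4 were called or had an unadjusted p under 0.05. On that scale 12.1% of all genes were lower and 15.5% higher. Without the highest-numbered library of each group, an alternative chosen after the data were seen, MT2A was higher by 0.38 (adjusted p = 0.00281) and MT1E by 0.23 (adjusted p = 0.0284) with TMM on the genes, and lower by log2 fold changes of -1.30 and -1.49 on the ERCC scale.

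**Figure D5:**
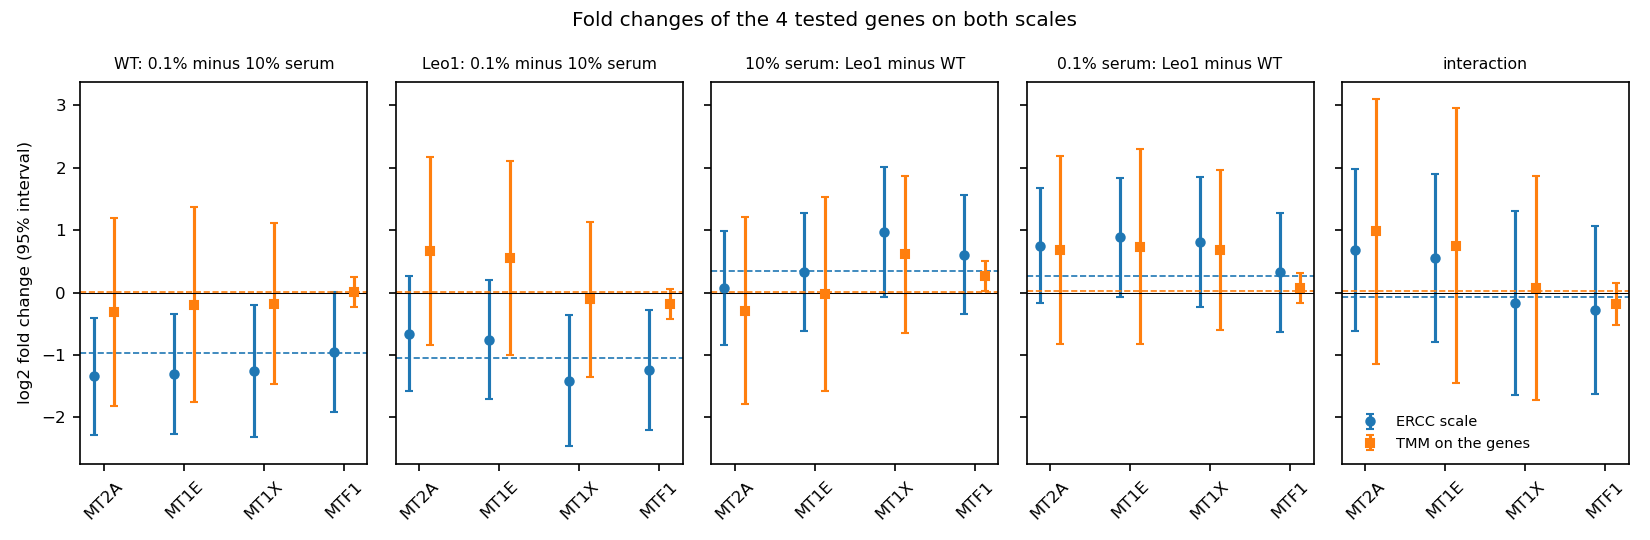
Log2 fold change with its 95% interval (vertical axis) of MT2A, MT1E, MT1X and MTF1 in the 4 comparisons and the interaction, on the ERCC scale (blue circles) and with TMM on the genes (orange squares). Dashed lines are the median of all genes on each scale, which is -0.97 and -1.05 on the ERCC scale in the serum comparisons, and the blue points of the family lie near them.

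The second question was whether the knockout differed from WT in the same serum. In 10% serum none of the 4 genes passed the threshold on the ERCC scale. The log2 fold change of MT2A was 0.07 (95% interval -0.85 to 0.99, adjusted p = 0.942), that of MT1E 0.33 (-0.62 to 1.28, adjusted p = 0.756), that of MT1X 0.97 (-0.07 to 2.02, adjusted p = 0.379) and that of MTF1 0.61 (-0.34 to 1.56, adjusted p = 0.585). All 4 intervals include 0. By edgeR's quasi-likelihood test 0 of the 4 were called and 0 had an unadjusted p under 0.05, and DESeq2 with ERCC size factors also called 0. Of all genes 4.20% were called lower and 3.81% higher, and the median log2 fold change was 0.35.

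On the TMM scale, where 21.4% of all genes were lower and 17.9% higher, the values were -0.29 for MT2A, -0.02 for MT1E, 0.62 for MT1X and 0.26 for MTF1 (adjusted p = 0.0779 for MTF1, the 1 gene of the 4 with an unadjusted p under 0.05). MT1X turned on library 6. With libraries 4 and 5 alone in Leo1_10 it had 1.12 on the TMM scale (adjusted p = 0.0262). Without the highest-numbered library of each group, MT1X had 0.80 (adjusted p = 1.02e-04) and MTF1 0.27 (adjusted p = 0.00696) on that scale, with 2 libraries in each group. Both alternatives were chosen after the data were seen.

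In 0.1% serum the means of the 3 metallothioneins were higher in the knockout without passing the threshold. In CPM, library 12 overlapped the WT libraries for MT2A and MT1E. In ERCC-scaled counts, library 11 overlapped the WT libraries for all 3 metallothioneins, and library 12 lay above them. The log2 fold changes on the ERCC scale were 0.75 for MT2A (95% interval -0.17 to 1.68, adjusted p = 0.601), 0.88 for MT1E (-0.07 to 1.84, adjusted p = 0.464) and 0.81 for MT1X (-0.23 to 1.86, adjusted p = 0.647), against a median of 0.27. MTF1 had 0.32 (adjusted p = 0.881). Again 0 of the 4 were called, 0 had an unadjusted p under 0.05 and DESeq2 with ERCC size factors called 0, where 3.41% of all genes were lower and 3.49% higher.

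The TMM scale gave similar sizes for the metallothioneins, namely 0.69 for MT2A (adjusted p = 0.482), 0.74 for MT1E and 0.69 for MT1X, and 0.08 for MTF1, with 17.3% of all genes lower and 15.1% higher. Library 12 was the lowest of Leo1_01 for all 3. Without the highest-numbered library of each group, MT2A had 0.88 (adjusted p = 1.82e-06), MT1E 1.12 (adjusted p = 5.15e-08) and MT1X 0.97 (adjusted p = 7.51e-05) on the TMM scale. On the ERCC scale the same libraries gave 0.45, 0.68 and 0.55 with adjusted p of 0.285 and above. The TMM alternative was chosen after the data were seen. It left 2 libraries in each group, the closer pairs, with a chi-square per gene of 2.73 to 10.2, and its p-values measure the spread within those pairs alone.

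Whether the serum response differed between the genotypes was tested by the interaction. On the ERCC scale it was 0.68 for MT2A (95% interval -0.62 to 1.98), 0.55 for MT1E, -0.16 for MT1X and -0.29 for MTF1, with an adjusted p of 1.00 for each. None of the 4 was called, and 0 had an unadjusted p under 0.05 by edgeR's quasi-likelihood test, and DESeq2 with ERCC size factors called 0. Of all genes, 0.0604% were called lower and 0.113% higher, and with TMM on the genes 0.453% and 1.55%. Without the highest-numbered library of each group, the interaction on the TMM scale was 0.92 for MT2A (adjusted p = 1.89e-04), 0.94 for MT1E (adjusted p = 5.85e-05) and -0.32 for MTF1 (adjusted p = 0.0434). That alternative was chosen after the data were seen and left only the closer pair of libraries in each group.

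The 3 genes below the filter were near the limit of detection. MT1M had 13, 15 and 2 counts in WT_10, 7, 8 and 3 in Leo1_10, 14, 3 and 19 in WT_01 and 16, 25 and 30 in Leo1_01. It was thus detected in every library, and its counts in Leo1_01 lay above those in both 10% serum groups and overlapped those in WT_01. MT1F had 8, 8 and 1, then 3, 0 and 7, then 2, 2 and 15, then 4, 3 and 2 counts in the same order of groups. MT1G had 1 count in library 2 and 0 in the other 11, which for each of them allows up to 3 counts and covers counting error only.

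MT1L, a pseudogene of the cluster between MT2A and MT1E, differed between the genotypes and was singled out after its values were seen. It had 8, 24 and 15 counts in WT_10 and 8, 5 and 15 in WT_01, 75 in all, and 0 in each of the 6 knockout libraries. Taking 3 counts per library as the floor, it was at least 4.38-fold lower in Leo1_10 than in WT_10 and at least 2.62-fold lower in Leo1_01 than in WT_01 on the ERCC scale. It did not pass the filter, and when all genes were tested without it the adjusted p of MT1L was 1.62e-05 in 10% and 3.39e-04 in 0.1% serum (edgeR's quasi-likelihood test). The neighbouring MT2A and MT1E, on either side of it, had counts in the knockout libraries as given above. MT1A, with 43 counts in all, also had lower means in the knockout, with overlap. They were 0.0960 CPM per kilobase in Leo1_10 against 0.422 in WT_10, and 0.101 in Leo1_01 against 0.411 in WT_01. Without the filter MT1A was not called (adjusted p = 0.497 and 0.518 by the same test).

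Genes that handle zinc and copper were described from lists written with earlier results known. Of 6 tested zinc exporters and vesicle transporters, 3 were called lower and 0 higher in WT cells in 0.1% serum on the ERCC scale (median log2 fold change -1.15, against -0.97 for all genes, of which 27.0% were lower), namely SLC30A6 (-1.34), SLC30A7 (-1.33) and SLC30A9 (-1.28). In the knockout 1 was called lower, SLC30A6 (-1.18), where 36.4% of all genes were, and in the genotype comparisons 0 on that scale, with 0 at an unadjusted p under 0.05. SLC30A1 had -0.86 (adjusted p = 0.131) in WT and -0.38 (adjusted p = 0.469) in knockout cells. With TMM on the genes 2 of the 6 were lower in WT (16.1% of all genes) and 0 in the knockout serum comparison (12.1%), and 3 and 1 were lower in the knockout than in WT in 10% and 0.1% serum (21.4% and 17.3% of all genes).

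Of 11 tested zinc importers, 7 in WT and 5 in knockout cells were called lower in 0.1% serum and 0 higher (medians -1.28 and -1.11), where 27.0% and 36.4% of all genes were lower. The count in knockout cells was near that share. The largest falls in WT were those of SLC39A10 (-2.05, adjusted p = 9.99e-04), SLC39A8 (-1.73), SLC39A1 (-1.50) and SLC39A6 (-1.36), and in the knockout those of SLC39A4 (-2.10), SLC39A10 (-1.47), SLC39A7 (-1.36) and SLC39A6 (-1.33). The call of SLC39A10 in the knockout was lost without library 6, with -1.01 (adjusted p = 0.110), and with TMM on the genes SLC39A10 was called in neither genotype (-1.23, adjusted p = 0.0598, and -0.67). With TMM on the genes 3 importers were lower in each genotype, where 16.1% and 12.1% of all genes were. Between the genotypes 2 were called lower in the knockout in both sera, SLC39A8 (-2.73 in 10% and -1.58 in 0.1% serum) and SLC39A4 (-1.89 and -2.83), and both were also called with TMM on the genes. Of all genes, 4.20% and 3.41% were lower in these comparisons on the ERCC scale. With TMM on the genes 4 importers were lower and 1 higher in the knockout in 10% serum (21.4% and 17.9% of all genes). In 0.1% serum 2 were lower and 1 higher on that scale (17.3% and 15.1% of all genes). SLC39A10 had -0.71 (adjusted p = 0.523) in 10% serum.

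Of 14 tested genes of copper handling, 4 in WT and 6 in knockout cells were called lower in 0.1% serum and 0 higher (medians -1.15 and -1.15). Both counts were near the shares over all genes, 27.0% and 36.4%. They included SLC31A1, the copper importer of the plasma membrane (-1.86 in WT and -1.91 in knockout cells), which was also called with TMM on the genes (-0.89 and -0.90), and ATOX1, a copper chaperone (-1.39 and -1.42). ATP7B (-1.71) was among them in WT, SCO1 in WT (-1.21) and in knockout cells (-1.81), and COX17 in knockout cells (-1.54). On the TMM scale 2 were lower in WT cells, where 16.1% of all genes were lower. In knockout cells 2 were lower and 1 higher, where 12.1% of all genes were lower and 15.5% higher. The calls of ATP7B, of SCO1 in WT and of COX17 and ATOX1 in knockout cells were lost on that scale. Between the genotypes 1 was called lower, STEAP2, a metalloreductase, with -5.13 in 10% and -2.95 in 0.1% serum, where 4.20% and 3.41% of all genes were lower. On the TMM scale 4 copper genes were higher and 1 lower in the knockout in 10% serum, where 17.9% of all genes were higher and 21.4% lower. In 0.1% serum 2 were higher and 1 lower, where 15.1% of all genes were higher and 17.3% lower.

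Metallothioneins are also targets of the glucocorticoid receptor. Of 10 tested genes of the glucocorticoid response, 6 were called lower and 1 higher in WT and 5 lower and 1 higher in knockout cells in 0.1% serum (medians -1.30 and -1.14). Of all genes, 27.0% were lower and 0.831% higher in WT, and 36.4% and 0.793% in knockout cells. The higher gene was ANGPTL4, also a target of PPAR receptors, with 3.19 and 4.14. CEBPD had -1.88 and -1.52, DUSP1 -1.86 and -2.18, KLF9 -1.77 in WT and PER1 -1.45 in knockout cells. With TMM on the genes the split was 3 lower and 1 higher in WT and 1 lower and 3 higher in knockout cells. On that scale 16.1% of all genes were lower and 15.5% higher in WT, and 12.1% and 15.5% in knockout cells. Between the genotypes ANGPTL4 was called lower in the knockout in 10% serum (-1.72), where 4.20% of all genes were lower. In 0.1% serum 0 genes were called, with 0 at an unadjusted p under 0.05, where 3.41% of all genes were lower and 3.49% higher. The TMM scale gave other counts, as 5 of the 10 were lower in 10% serum, and 2 were lower and 1 higher in 0.1% serum. Of all genes on that scale, 21.4% were lower and 17.9% higher in 10% serum, and 17.3% and 15.1% in 0.1% serum.

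Genes beside the cluster on chromosome 16 were compared as neighbours. Of 8 tested, 3 were called lower in WT (NLRC5 -1.95, NUP93 -1.37 and HERPUD1 -1.22) and 3 in knockout cells (NLRC5 -1.69, NUP93 -1.55 and OGFOD1 -1.44) in 0.1% serum, with medians of -0.99 and -0.97 close to those of all genes, of which 27.0% and 36.4% were lower. On the TMM scale 2 were lower in WT, where HERPUD1 was not called (adjusted p = 0.492), and 2 lower and 1 higher in knockout cells. Of all genes on that scale, 16.1% were lower in WT, and 12.1% were lower and 15.5% higher in knockout cells. Between the genotypes 0 of the 8 were called in either serum on the ERCC scale, where 1 in 10% serum and 0 in 0.1% serum had an unadjusted p under 0.05. With TMM 1 was lower and 2 higher between the genotypes in 10% serum, where 21.4% of all genes were lower and 17.9% higher. In 0.1% serum 0 were lower and 1 higher, where 17.3% of all genes were lower and 15.1% higher. Both serum comparisons and both genotype comparisons use the same 4 groups, so their values are given side by side and are not independent of each other.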

How the data were processed

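The authors sequenced poly(A) RNA with ERCC transcripts, aligned paired 58-base reads with STAR and used featureCounts to count them over annotated exons. The submitters' processing notes name GRCh38, bcl2fastq 2.20.0.422, STAR 2.7.10a and featureCounts 1.5.1. The deposited values are raw counts of 60671 genes and of the ERCC transcripts in 12 libraries, all used. The annotation release, the strand setting and the treatment of reads with several alignments are not given in the sources used here.

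Counts were tested in R 4.3.3 with edgeR 4.0.16 (quasi-likelihood test, 1 fit of 12 libraries and 4 groups, two-sided). The effective library size was the ERCC total times the TMM factor of the ERCC transcripts. Genes above 1 CPM in at least 3 libraries were tested, and a Benjamini-Hochberg adjusted p under 0.05 over all of them was called. The methods of the study name edgeR and the ERCC scaling but not the test. Alternatives were the likelihood ratio test, TMM on the genes, DESeq2 1.42.0 with ERCC size factors, and edgeR's test with DESeq2 size factors from the genes. Others were no filter, only the libraries compared, leaving out libraries, and a term for the highest-numbered library of each group. The code was tested on simulated data.

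CPM values were scaled to the gene counts of a library. Folds of 1 library used CPM with 0.1 added, and correlations log2 CPM with a prior count of 2, for genes with a mean of at least 10 CPM. Positions, lengths and transcript sequences came from GENCODE v29. Shared stretches were exact matches on the sense strand.

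The genes, lists and tests were chosen with earlier results of these data known. The rule for named genes was the 7 listed genes, other metallothioneins past the filter, SLC30A1, SLC39A10, LEO1, up to 4 called members with the largest fold change from each list and comparison, and the 5 genes most like MT2A and MTF1. Intervals and floors cover counting error only where they rest on counts of 1 library.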

Additional observations from a re-analysis of the deposited data

How the results depend on the processing

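The groups share no replicate numbers, so libraries could not be paired by their labels, and the main tests hold no term for the highest-numbered libraries. MT1F, MT1G and MT1M had too few counts to pass the filter. Alternatives that combine left-out libraries with TMM on the genes, or that fit the highest-numbered library of each group as a term, were chosen after seeing the data. Where a value moved, the cause was not tested.

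In WT cells in 0.1% serum, 2 of the 4 genes were called lower. The number was 0 with TMM on the genes, DESeq2 with ERCC size factors, edgeR with DESeq2 size factors from the genes, and no filter. It was also 0 with TMM without library 3 and with the highest-numbered library as a term on either scale. It was 4 with only the 6 libraries compared and without the highest-numbered library of each group, and 0 to 3 when 1 library was left out. Over 15 alternatives, those added after seeing the data left out, the adjusted p of MT2A ranged from 0.00195 to 0.764 and that of MT1E from 3.28e-04 to 0.863. In knockout cells 2 were called lower. The number was 1 with DESeq2 and ERCC, and 0 with TMM, edgeR with DESeq2 size factors from the genes, no filter or only the 6 libraries. It was also 0 with TMM without library 6 or with the highest-numbered library as a term on either scale. It was 4 without the highest-numbered libraries, and 0 to 3 when 1 library was left out. There the adjusted p of MT1X ranged from 3.31e-06 to 0.906 and that of MTF1 from 1.02e-05 to 0.248. Leaving out the highest-numbered libraries with TMM gave 2 called higher in that comparison, 2 higher between the genotypes in 10% serum (1 with TMM without library 6 alone, and 1, MTF1, with TMM and the term), 3 higher in 0.1% serum, and 2 higher and 1 lower in the interaction, where the count was 0.

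Called genes of the whole table moved as follows. For WT serum, 3688 became 7951 with only the 6 libraries, 8505 without the highest-numbered libraries, 7523 with TMM as well, and 812 to 6247 when 1 library was left out (6247 without library 3, 1178 or fewer without 1, 2, 7 or 9). For knockout serum, 4925 became 2629 with no filter, 593 with only the 6 libraries, 12178 without the highest-numbered libraries, 2922 with TMM without library 6, 2168 with the term, and 447 to 11668 leaving out 1 (11668 without library 12, 1137 or fewer without 4, 5, 10 or 11). For genotype in 10% serum, 1060 became 5205 with TMM, 5216 with DESeq2 size factors, 1647 with no filter, 1611 with only the 6 libraries, and with TMM 8229 without the highest-numbered libraries, 4857 without library 3, 4644 without library 6 and 5808 with the term. For genotype in 0.1% serum, 914 became 4293 with TMM, 4286 with DESeq2 size factors, 1983 without the highest-numbered libraries, 7879 with TMM as well, 4889 with TMM and the term, and 618 to 1525 leaving out 1 (1525 without library 11). For the interaction, 23 became 265 with TMM, 263 with DESeq2 size factors, 68 without the highest-numbered libraries, 3161 with TMM as well, 256 and 209 with TMM without library 3 or 6, 469 with TMM and the term, and 13 to 71 leaving out 1 (57 and 71 without library 11 or 12, 13 to 15 without 2, 5, 6, 7 or 10).

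Of 3025 single-gene values under an alternative, 2562 stayed on the same side of the threshold, 171 gained a call and 278 lost one. The 2562 include values that changed sign without a call in either fit, such as MT2A in knockout serum with TMM on the genes. The other 14 reversed, that is, changed sign with a call before or after. Without the highest-numbered libraries and with TMM, the reversed log2 fold changes were 0.38 for MT2A, 0.23 for MT1E and 0.77 for SLC39A8 in knockout serum, -0.25 for SLC30A6, -0.23 for KLF9 and -0.17 for HERPUD1 between genotypes in 10% serum, -0.30 for SLC30A6, -0.20 for SLC30A7, -0.43 for SLC30A9 and -0.20 for SCO1 in 0.1% serum, and 0.36 for ATOX1 in the interaction. With TMM without library 6, SLC39A10 had 0.013 in knockout serum. With TMM and the term, MT1E had 0.12 in WT and MT1X 0.082 in knockout serum.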
